A study of Mus musculus with 20 samples.

Results

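The HoxD cluster was examined in lumbar and sacral dorsal root ganglia (DRG), which hold the cell bodies of sensory neurons, wrapped by satellite glia, next to the spinal cord. It comprises the 9 genes Hoxd1, Hoxd3, Hoxd4, Hoxd8, Hoxd9, Hoxd10, Hoxd11, Hoxd12 and Hoxd13. All genes with a HoxD symbol were taken, whatever their values, 9 of the 37620 Ensembl genes listed in the expression table. The libraries came from whole ganglia of E18.5 C57Bl6 mouse embryos, shortly before birth, with no transgene or treatment named. Each of 10 donor embryos, 5 male (M1, M3, M5, M7, M8) and 5 female (F3, F7, F8, F9, F10), gave 1 library from the ganglia of L4-5, called lumbar, and 1 from those of L6-S1. The latter are called sacral, the name the study gives them. The ganglia of 1 level were not separated into cells, so fewer cells of a type and less RNA per cell cannot be told apart.

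Hox genes encode homeodomain transcription factors that specify position along the head to tail axis. They lie in 4 clusters, HoxA to HoxD, and genes in the same place in different clusters are paralogues with the same number. Within a cluster, low-numbered genes are switched on early and far forward in the embryo, and high-numbered genes late and near the tail. Paralogues of groups 10 and 11 are known for setting the identity of lumbar and sacral vertebrae and of lumbar spinal motor neurons, and groups 12 and 13 for the genital and tail end of the body and the distal limb.

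Levels are given as RPKM, reads scaled to exon length in kilobases and to library size, or as log2 RPKM. Differential expression was tested with limma, with donor as a block, and a gene was called at an adjusted p of at most 0.05. Tested were the 14529 genes whose mean log2 RPKM reached that of 1 RPKM in at least 1 of the 4 groups of level and sex. Library depth ran from 19606261 to 39678956 reads, and mitochondrial ribosomal RNA took 17.83% to 61.05% of them. Of the 9 HoxD genes, 5 passed the filter (Hoxd1, Hoxd8, Hoxd9, Hoxd10 and Hoxd11), and 4 did not (Hoxd3, Hoxd4, Hoxd12 and Hoxd13).

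Hoxd10 and Hoxd11 were upregulated in sacral DRG, 3.42-fold and 4.57-fold, in all 10 donors. Their neighbours Hoxd8 and Hoxd9 were within 0.08 of the lumbar level on the log2 scale, and the change from one behaviour to the other fell between Hoxd9 and Hoxd10. Hoxd12 and Hoxd13 gave few reads, nearly all of them from sacral DRG. No HoxD gene was called for sex.

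The genes lie on the plus strand of chromosome 2 (mm9) within 96834 bases, from the start of Hoxd13 (74506367) to the end of Hoxd1 (74603200), so that the paralogue numbers run against the coordinates. Hoxd11 spans chr2:74517449-74525798, Hoxd10 spans chr2:74529147-74533163 and Hoxd9 spans chr2:74535737-74538265. The 250 bases before the annotated start of the coding transcripts of these neighbours are shown because the level difference changes between them. Each is written in the direction of transcription, and capitals mark the letters TTTAT, the core of sites bound by CDX factors, read on either strand.
Hoxd9: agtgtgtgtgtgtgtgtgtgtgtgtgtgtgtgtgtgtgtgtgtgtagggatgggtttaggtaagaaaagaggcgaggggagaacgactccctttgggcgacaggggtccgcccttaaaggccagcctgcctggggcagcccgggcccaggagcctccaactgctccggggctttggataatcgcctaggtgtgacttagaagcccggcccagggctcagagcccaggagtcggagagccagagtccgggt
Hoxd10: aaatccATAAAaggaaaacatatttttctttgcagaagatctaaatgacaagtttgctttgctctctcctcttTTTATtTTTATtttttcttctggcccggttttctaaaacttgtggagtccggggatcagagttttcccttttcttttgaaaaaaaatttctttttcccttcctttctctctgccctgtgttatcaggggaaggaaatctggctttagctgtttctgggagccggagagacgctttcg
Hoxd11: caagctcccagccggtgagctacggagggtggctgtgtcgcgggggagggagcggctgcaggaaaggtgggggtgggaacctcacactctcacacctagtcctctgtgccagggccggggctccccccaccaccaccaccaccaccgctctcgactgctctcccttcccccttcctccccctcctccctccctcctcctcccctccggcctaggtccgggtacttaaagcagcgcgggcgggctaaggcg
These windows are chr2:74535487-74535736 for Hoxd9, chr2:74528897-74529146 for Hoxd10 and chr2:74519806-74520055 for Hoxd11 (mm9, GENCODE M1 starts), and none overlapped an annotated exon. The Hoxd10 window held TTTAT 3 times, with 239, 172 and 166 bases between it and the start, and the windows of Hoxd9 and Hoxd11 did not hold it. Over the 9 HoxD genes 4 windows held it (Hoxd3, Hoxd4, Hoxd10 and Hoxd13), against 35.4% of the windows of 22367 coding genes. TATAAA, the TATA box, holds TTTAT on its other strand, so that its windows are among those with TTTAT. It was in 2 of 9 windows (Hoxd4 and Hoxd13) and in 12.3% of all. TGATNNAT, a site of PBX and HOX proteins together, was in 0 of 9 and in 6.97% of all. The windows also differed in base composition. GC made up 38.8% of the Hoxd10 window, with 5 CpG, 61.2% of the Hoxd9 window, with 10 CpG, and 69.2% of the Hoxd11 window, with 14 CpG, beside medians of 54.4% and 9 CpG over all coding genes.

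Hoxd10 RPKM in the lumbar male libraries was 2.44 in M1, 2.98 in M3, 3.48 in M5, 4.18 in M7 and 3.44 in M8, and in their sacral partners 11.3, 11.9, 11.4, 8.73 and 9.99. In the lumbar female libraries it was 2.14 in F3, 2.78 in F7, 2.89 in F8, 2.01 in F9 and 2.86 in F10, and in the sacral female libraries 9.62, 6.02, 7.24, 12.1 and 11.6. The highest lumbar value lay below the lowest sacral value, that of F7. The mean RPKM was 2.92 ± 0.655 (SD, n = 10) in lumbar and 9.99 ± 2.10 (SD, n = 10) in sacral DRG, from 151 to 318 reads a lumbar library and 368 to 1035 a sacral one. The log2 difference, sacral minus lumbar, was 1.77 ± 0.12 (SE; limma, adjusted p = 3.22e-08), a fold of 3.42 with a 95% interval of 2.86 to 4.09.

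Hoxd11 RPKM in the lumbar male libraries was 1.31 in M1, 2.97 in M3, 2.35 in M5, 2.87 in M7 and 2.53 in M8, and in their sacral partners 9.50, 11, 10.5, 8.89 and 10.03. In the lumbar female libraries it was 2.17 in F3, 2.96 in F7, 3.24 in F8, 1.54 in F9 and 2.03 in F10, and in the sacral female libraries 13.4, 8.90, 10.2, 11.2 and 12.7. The groups again did not overlap, and lumbar M1 was the lowest of all. The mean RPKM was 2.40 ± 0.640 (SD, n = 10) in lumbar and 10.6 ± 1.498 (SD, n = 10) in sacral DRG. The log2 difference was 2.19 ± 0.13 (SE; limma, adjusted p = 4.61e-09), a fold of 4.57 with a 95% interval of 3.77 to 5.53.

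**Figure D1:**
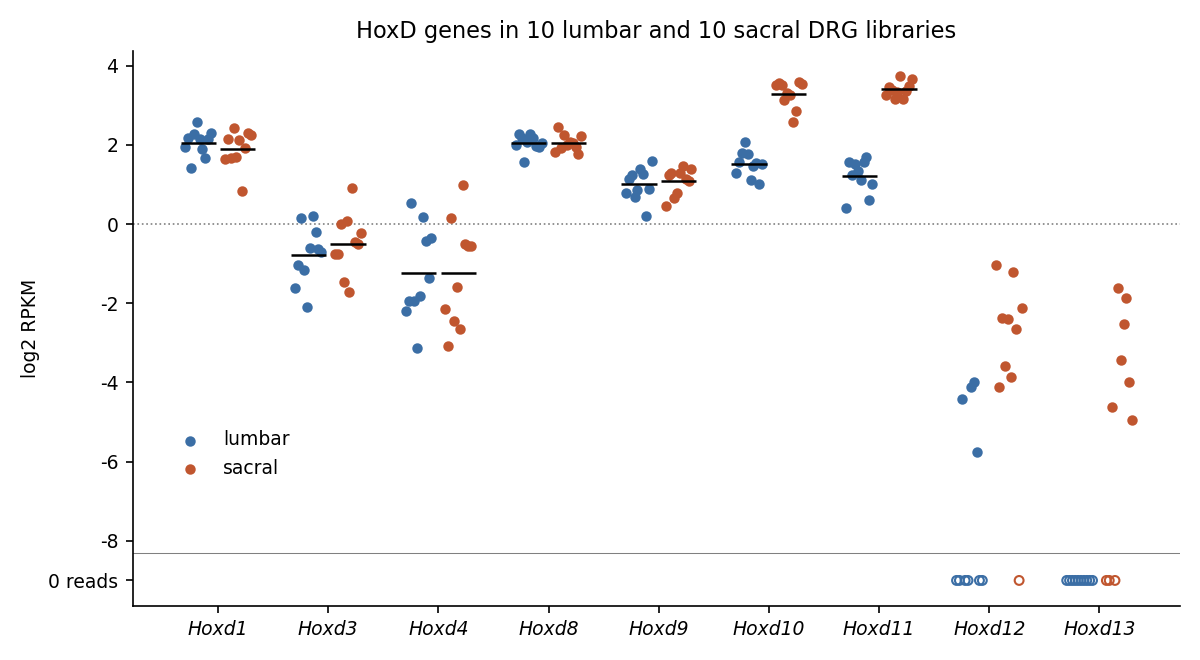
Level of each HoxD gene in log2 RPKM (y axis) in the 10 lumbar (blue) and 10 sacral (orange) libraries, genes in paralogue order on the x axis. Points are libraries, black bars are means where all libraries had reads, open circles on the bottom line are libraries with 0 reads, and the dotted line is 1 RPKM. The lumbar and sacral points separate at Hoxd10 and Hoxd11, and the 10 lumbar libraries of Hoxd13 all sit at 0 reads.

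The 2 called HoxD genes, of 5 tested, stand beside 978 genes called among all 14529, or 6.73%, and 392 called as higher in sacral DRG, or 2.70%. The count of 978 depended on single donors, and was 400 to 600 without F10, M5, F7, F3 or M1, each left out alone, and 1594 without F8, while the HoxD count was 2 in each of these. Lumbar and sacral values did not overlap for 0.138% of tested genes, and 0.895% were higher in sacral DRG in all 10 donors. The median log2 difference over the 5 HoxD genes tested was 0.08, beside -0.05 over all genes tested. Both differences were as large within each sex. Hoxd10 differed by 1.70 ± 0.15 (SE) in male donors alone (limma, adjusted p = 9.84e-05) and by 1.84 ± 0.19 (SE) in female donors alone (limma, adjusted p = 0.00551). For Hoxd11 these were 2.10 ± 0.17 (adjusted p = 9.08e-05) and 2.28 ± 0.19 (adjusted p = 0.00103), from the same fits.

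Some cell type markers also moved with level, which does not tell the number of cells from the RNA per cell. Over all 14529 genes tested, 392 were called higher and 586 lower in sacral DRG. Of 8 cartilage markers 4 were tested, and 2 were higher in sacral DRG, with a summed level of 9.37 to 24.7 RPKM in lumbar and 12.4 to 49.0 in sacral libraries. Of 9 fibroblast and meninges markers 8 were tested and 4 were higher (354 to 887 against 416 to 1030 RPKM), and 2 of 4 endothelial markers tested were higher (22.6 to 47.4 against 32.3 to 58.4 RPKM). Of 9 markers of Schwann cells and satellite glia 4 were lower in sacral DRG (237 to 344 against 162 to 281 RPKM), as were 3 of 7 of large myelinated neurons and 1 of 8 pan-neuronal markers (730 to 1540 against 370 to 1330 RPKM). Of 7 nociceptor markers 1 was higher and 1 lower. By limma 0 of 6 skeletal muscle, 0 of 2 spinal cord and 0 of 3 erythroid markers tested were called, with 1, 0 and 1 at an unadjusted p under 0.05. By voom 0 were called in each list. The 2 spinal cord markers tested were Isl2 (5856 lumbar and 4938 sacral reads) and Pax6 (6230 and 5793). Their reads may come from other cells, so these 2 do not tell how much spinal cord the libraries held. Of the 5 spinal cord markers below the filter, Olig2, of the oligodendrocyte and motor neuron lineages, moved with level, with 7 lumbar and 76 sacral reads. It had more reads in the sacral library of 7 of 10 donors and none at either level in M7, F3 and F10, and it reached at most 0.374 RPKM. In these 3 donors, without Olig2 reads, Hoxd10 differed by 1.06, 2.17 and 2.03 and Hoxd11 by 1.63, 2.62 and 2.65. At so low a level the lack of reads does not show that such cells were absent, and a link to the HoxD differences was not tested. Nkx2-2 had 0 and 4 reads, Chat 3 and 5, Mnx1 2 and 0 and Sox2 572 and 567, lumbar and sacral. No marker was at 0 in all libraries. With the cartilage and fibroblast marker levels as covariates Hoxd10 differed by 1.89 ± 0.18 (SE) and Hoxd11 by 2.15 ± 0.20 (SE), at a limma adjusted p of 2.69e-05 for each. With the neuronal and glial levels the differences were 1.78 and 2.16, and with the mitochondrial share 1.77 and 2.19, all past the threshold.

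Hoxd1, Hoxd8 and Hoxd9 did not pass the test. Hoxd1, which in mouse is known from nociceptive neurons, ran from 1.43 through a median of 2.15 to 2.58 log2 RPKM in lumbar and from 0.84 through 2.02 to 2.43 in sacral libraries. Its log2 difference was -0.15 ± 0.15 (SE; limma, adjusted p = 0.537), with a 95% interval of -0.46 to 0.15. The donors were spread widely, from -1.05 in F7 and -0.88 in M8 to 0.26 in F8, with 4 of 10 higher in sacral DRG, and the difference was -0.04 without F7 and -0.07 without M8. Hoxd8 ran from 1.57 through 2.06 to 2.28 log2 RPKM in lumbar and from 1.77 through 2.03 to 2.45 in sacral libraries. Its difference was -0.00 ± 0.09 (SE; limma, adjusted p = 0.984), with a 95% interval of -0.19 to 0.18, the narrowest of the cluster. Hoxd9 ran from 0.20 through 1.02 to 1.59 in lumbar and from 0.45 through 1.19 to 1.46 in sacral libraries. Its difference was 0.08 ± 0.13 (SE; limma, adjusted p = 0.740), with a 95% interval of -0.19 to 0.34, and 5 of 10 donors were higher. For all 3 genes the lumbar and sacral libraries overlapped, and none of the intervals reached the folds of Hoxd10 and Hoxd11. The sign of these small differences was not stable. With the cartilage and fibroblast marker levels as covariates Hoxd1 differed by 0.18, for example.

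**Figure D2:**
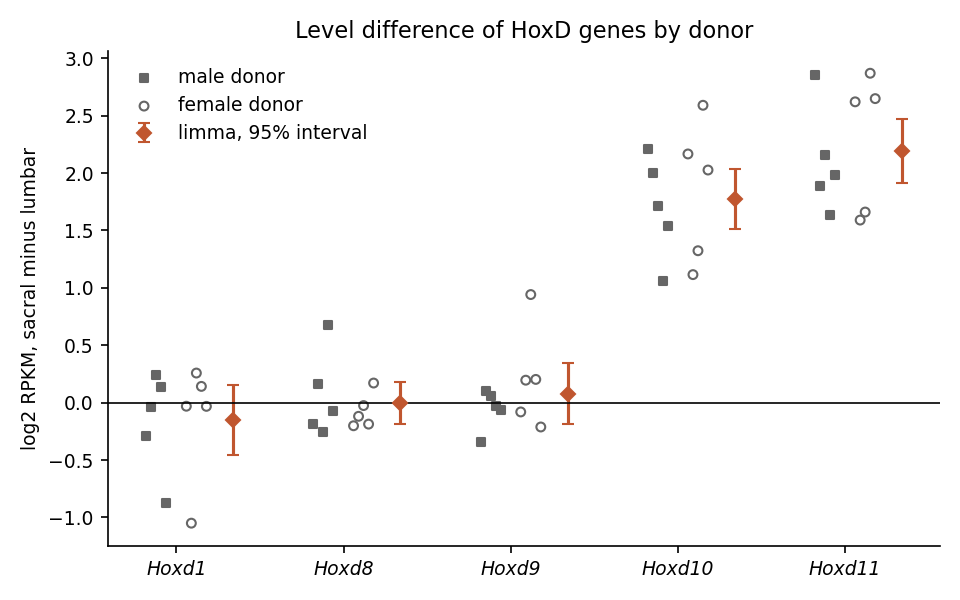
Sacral minus lumbar difference in log2 RPKM (y axis) for the 5 HoxD genes tested, in paralogue order. Squares are male and open circles female donors, and orange diamonds with bars are the limma differences with their 95% intervals. All 10 donors lie above 1 for Hoxd10 and Hoxd11, while the intervals of Hoxd1, Hoxd8 and Hoxd9 include 0.

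The difference itself was compared between neighbouring tested genes, in paralogue order, by an exact sign-flip permutation test over the 10 donors (two-sided, 4 pairs, smallest possible p = 0.00195). Hoxd10 exceeded Hoxd9 by 1.70 ± 0.71 (SD, n = 10) on the log2 scale, in 10 of 10 donors (exact p = 0.00195, adjusted p = 0.0078). Hoxd11 exceeded Hoxd10 by a further 0.42 ± 0.22 (SD, n = 10), in 9 of 10 donors (exact p = 0.00391, adjusted p = 0.00782). M3 was the exception, with 1.996 for Hoxd10 and 1.89 for Hoxd11. Hoxd8 and Hoxd1 differed by 0.15 ± 0.48 (SD, n = 10; exact adjusted p = 0.461), and Hoxd9 and Hoxd8 by 0.08 ± 0.46 (SD, n = 10; exact adjusted p = 0.605). Thus the level difference stepped up between Hoxd9 and Hoxd10 and again, by less, between Hoxd10 and Hoxd11.

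The donors with a large Hoxd10 difference also had a large Hoxd11 difference. The Hoxd10 difference was 1.06 in M7, 1.11 in F7, 1.32 in F8, 1.54 in M8, 1.71 in M5, 1.996 in M3, 2.03 in F10, 2.17 in F3, 2.21 in M1 and 2.59 in F9. The Hoxd11 difference was 1.63, 1.59, 1.66, 1.99, 2.16, 1.89, 2.65, 2.62, 2.85 and 2.87 in the same donors. The order of the donors was almost the same for both genes, and neither sex stood at one end. Over the 10 donors Pearson's r was 0.911 (permutation p = 0.00065, adjusted p = 0.0026 over 4 pairs) and Spearman's rho was 0.939 (permutation p = 0.00026, adjusted p = 0.00104). Without M7 and F7, the donors farthest from the median Hoxd10 difference, r was 0.865. Both values of a donor come from the same pair of libraries, whose composition they share. With the mean of the donor's sex removed r was 0.909, and each sex alone has too few donors for its own r. The other pairs gave r of 0.204 (Hoxd1 and Hoxd8), -0.0615 (Hoxd8 and Hoxd9) and -0.355 (Hoxd9 and Hoxd10), with permutation adjusted p from 0.672 to 0.831 (Pearson) and from 0.738 to 0.973 (Spearman), and r of 0.103, 0.322 and 0.0138 without the 2 farthest donors.

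**Figure D3:**
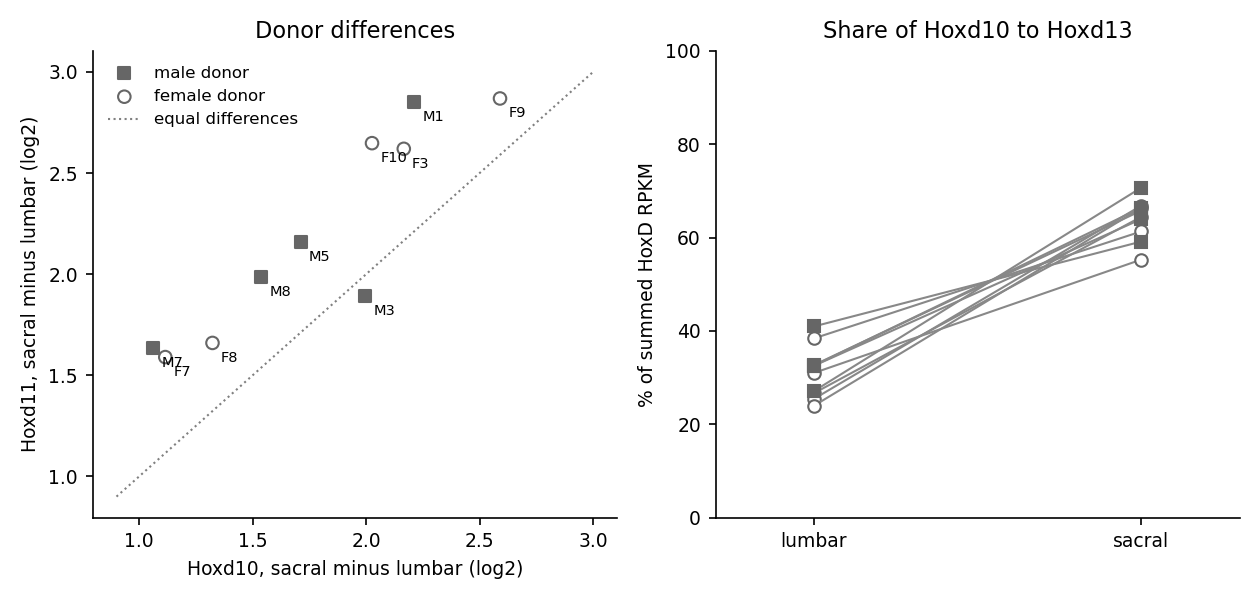
Left, the Hoxd11 difference against the Hoxd10 difference, sacral minus lumbar in log2 RPKM, 1 point per donor (squares male, circles female), with a dotted line where both are equal: 9 of 10 donors lie above it. Right, the share of the summed HoxD RPKM that came from Hoxd10 to Hoxd13 (y axis, percent) in the lumbar and sacral library of each donor: every line rises.

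As a description, Hoxd10 to Hoxd13 together made up 23.98% to 40.97% of the summed RPKM of the 9 genes in lumbar libraries (median 31.8%) and 55.3% to 70.7% in sacral libraries (median 65.1%). The summed level itself was 13.8 to 18.7 RPKM in lumbar and 28.1 to 38.2 RPKM in sacral libraries. The lowest sacral share was that of F7, which also had the lowest sacral Hoxd1, and the highest was that of M1.

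In lumbar DRG the order of mean log2 RPKM was Hoxd1 (2.06), Hoxd8 (2.05), Hoxd10 (1.51), Hoxd11 (1.21), Hoxd9 (1.003), Hoxd3 (-0.77), Hoxd4 (-1.25) and Hoxd12 (-6.22), with no read of Hoxd13. In sacral DRG it was Hoxd11 (3.398), Hoxd10 (3.29), Hoxd8 (2.05), Hoxd1 (1.90), Hoxd9 (1.08), Hoxd3 (-0.49), Hoxd4 (-1.24), Hoxd12 (-3.04) and Hoxd13 (-4.47), a library without reads standing at the value of 0.5 reads. Hoxd10 and Hoxd11 thus moved from the third and the fourth place to the top. Neighbours in these orders were compared by exact sign-flip permutation tests over libraries (15 pairs). Hoxd1 and Hoxd8 did not differ beyond their spread in lumbar (0.00 ± 0.42, SD, n = 10; exact adjusted p = 0.986) or sacral DRG (-0.15 ± 0.45, SD, n = 10, Hoxd1 minus Hoxd8; exact adjusted p = 0.408). Hoxd11 and Hoxd9 in lumbar DRG (exact adjusted p = 0.408), Hoxd11 and Hoxd10 in sacral DRG (exact adjusted p = 0.305) and Hoxd12 and Hoxd13 in sacral DRG (exact adjusted p = 0.187) did not either. In sacral DRG Hoxd10 exceeded Hoxd8 by 1.24 ± 0.40 (SD, n = 10; exact adjusted p = 0.00731). In lumbar DRG Hoxd8 exceeded Hoxd10 by 0.54 ± 0.45 (SD, n = 10; exact adjusted p = 0.0209). The difference of Hoxd10 over Hoxd11 in lumbar DRG, 0.31 ± 0.35 (SD, n = 10; exact adjusted p = 0.0468), passed narrowly. It was 0.24 without M1 (exact adjusted p = 0.0879), and it did not pass without any 1 of 8 donors, M1 among them. Levels per length rest on the gene models, and Hoxd11 was divided by 5426 exon bases, which include long non-coding forms, and Hoxd10 by 2651.

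Hoxd12 and Hoxd13, the genes nearest the end of the cluster, were close to the limit of detection. Hoxd12 reads in the lumbar libraries were 0 in M1, M3, M7, M8, F9 and F10, 2 in M5, 5 in F3, 4 in F7 and 2 in F8. In the sacral libraries they were 40 in M1, 5 in M3, 10 in M5, 6 in M7, 14 in M8, 7 in F3, 26 in F7, 11 in F8, 0 in F9 and 15 in F10. In 9 of 10 donors the sacral library held more, and F9 had no read at either level. The totals were 13 lumbar and 134 sacral reads, a ratio of 11.1 after scaling for depth with an exact 95% interval of 6.27 to 21.4, which covers counting error only. Hoxd13 had 0 reads in all 10 lumbar libraries. In the sacral libraries it had 0 reads in M1, M3 and M7, 2 in M5, 23 in M8, 9 in F3, 10 in F7, 18 in F8, 4 in F9 and 2 in F10. The 68 sacral reads came from 7 of 10 donors, all 5 females among them, and 23 of them from M8. Set against 3 reads over the 10 lumbar libraries together, the limit that 0 reads allow, the ratio after scaling was 24.4, with the sacral reads taken as exact. With the reads of all donors pooled and the counting error of both groups, the ratio was at least 19.3 (exact 95% limit). Without M8 it was at least 12.4. These limits leave out the spread of the donors, of whom M1, M3 and M7 had no Hoxd13 read, so they do not bound the difference across embryos. The difference of log2 RPKM of both passed the exact sign-flip permutation test over donors, adjusted over the 4 genes below the filter, with values for 0 reads set at 0.5 reads. For Hoxd12 the exact p was 0.00195 (adjusted p = 0.00781, n = 10), and for Hoxd13 it was 0.0137 (adjusted p = 0.0273, n = 10). With donors without reads at both levels given no difference, the exact p was 0.00391 and 0.0156 by the same test (adjusted p = 0.0156 and 0.0312). In a limma fit of all 29049 genes with a value, where 1.75% were called for level, both were past the threshold (adjusted p = 0.00883 and 0.0128). With any 1 of the 7 donors with sacral Hoxd13 reads left out, its difference was 2.37 to 2.82 on the log2 scale, against 2.71 with all. It then did not pass the exact test adjusted over the 4 genes below the filter. Too few donors with reads were left for that test to pass at any size of difference, so it does not tell how far the result rests on single donors.

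Hoxd3 and Hoxd4 had reads in every library but means under 1 RPKM. Hoxd3 ran from 0.234 to 1.16 RPKM in lumbar and from 0.306 to 1.88 RPKM in sacral libraries, with 46 to 251 reads. Hoxd4 ran from 0.115 to 1.45 RPKM in lumbar and from 0.119 to 1.98 RPKM in sacral libraries, with 10 to 117 reads. The groups overlapped almost in full. The mean log2 difference was 0.28 ± 0.88 (SD, n = 10; exact p = 0.369) for Hoxd3, or 0.07 without M8, and 0.01 ± 0.82 (SD, n = 10; exact p = 0.977) for Hoxd4. In the annotation 67.38% of the Hoxd4 exon bases are also exon of Hoxd3, and 35.77% of the Hoxd3 bases are shared with Hoxd4 or with the opposite-strand 1700109F18Rik, so the levels of both are uncertain.

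Their spread within a level moved with the share of mitochondrial ribosomal RNA in the library, a relation examined after the values had been seen, over 7 genes at each level (14 relations, 10 libraries each). For Hoxd4 r was 0.854 in lumbar (permutation p = 0.00096, adjusted p = 0.00672) and 0.930 in sacral DRG (permutation p = 0.00017, adjusted p = 0.00238), with rho of 0.733 (adjusted p = 0.0868) and 0.915 (adjusted p = 0.00728). For Hoxd3 r was 0.760 (permutation p = 0.00993, adjusted p = 0.0278) and 0.782 (permutation p = 0.00688, adjusted p = 0.0241), with rho of 0.697 (adjusted p = 0.0868) and 0.770 (adjusted p = 0.0861). For Hoxd1 the sign was opposite, with r of -0.846 in lumbar (permutation p = 0.00224, adjusted p = 0.0105) and -0.422 in sacral DRG (permutation p = 0.227, adjusted p = 0.492), and rho of -0.697 (adjusted p = 0.0868) and -0.236 (adjusted p = 0.781). With the 2 libraries of most extreme share left out (F7 and M5 in lumbar, F3 and M3 in sacral DRG), r was 0.681 and 0.901 for Hoxd4, 0.529 and 0.694 for Hoxd3 and -0.711 and -0.36 for Hoxd1. For Hoxd10 r was 0.322 and -0.227 and for Hoxd11 0.318 and -0.260, with permutation adjusted p from 0.525 to 0.616. For Hoxd8 r was 0.0667 and -0.385 and for Hoxd9 0.00575 and 0.378, with permutation adjusted p from 0.492 to 0.987. Without the same 2 libraries a level, r was -0.403 and -0.0733 for Hoxd8 and -0.566 and 0.884 for Hoxd9. It was then 0.223 and -0.149 for Hoxd10 and 0.339 and 0.272 for Hoxd11. A cause of these relations was not tested, and each sex alone has 5 libraries a level, too few for its own r.

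**Figure D4:**
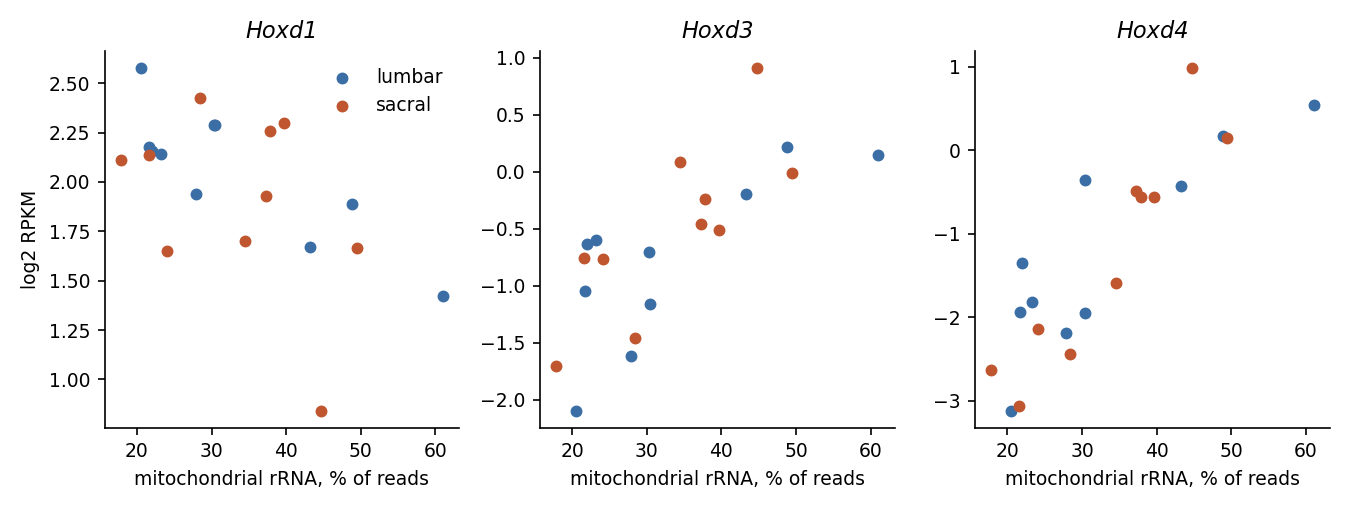
Level of Hoxd1, Hoxd3 and Hoxd4 in log2 RPKM (y axes) against the share of reads from mitochondrial ribosomal RNA in percent (x axes), 1 point per library, lumbar in blue and sacral in orange. Hoxd3 and Hoxd4 rise with the share at both levels, and Hoxd1 falls with it in lumbar libraries.

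HoxD genes were compared with their paralogues in the other clusters, pair by pair, by an exact sign-flip permutation test of the donors' level differences (8 pairs where both genes passed the filter). The p was adjusted over all 8 pairs, among them those given below as a description. Hoxd10 rose by 1.67 ± 0.68 (SD, n = 10) more on the log2 scale than Hoxa10 (exact adjusted p = 0.0039) and by 1.296 ± 0.42 (SD, n = 10) more than Hoxc10 (exact adjusted p = 0.0039), in 10 of 10 donors each. Hoxa10 itself differed by 0.10 (limma, adjusted p = 0.611) and Hoxc10 by 0.48 (limma, adjusted p = 0.00529). In group 11 the order was different, with the Hoxd11 difference, 2.19, between those of Hoxa11 (1.53) and Hoxc11 (2.84). Hoxa11 (mean 0.375 RPKM in lumbar and 1.12 in sacral DRG) and Hoxc11 (0.304 and 1.84 RPKM) reached the filter only through the sacral groups, so these pairs are given as a description, with no test. Hoxd11 exceeded Hoxa11 by 0.66 ± 0.94 (SD, n = 10), and by 1.198 on the log2(RPKM + 1) scale. It differed from Hoxc11 by -0.65 ± 0.82 (SD, n = 10), and by 0.69, with the opposite sign, on that scale. Hoxc11 had 2 to 210 reads a library, and Hoxa11 14 to 131. In the annotation 38.6% of the Hoxa11 exon bases are also exon of the opposite-strand Hoxa11as, so the Hoxa11 level is uncertain. In groups 8 and 9, Hoxb8, Hoxc8 and Hoxb9 were downregulated in sacral DRG while the HoxD genes were not called. Hoxb8 lies over Hoxb7 in the annotation, which makes its level uncertain, and it reached the filter only through lumbar DRG (1.12 RPKM, against 0.474 in sacral DRG). The Hoxd8 difference exceeded that of Hoxb8 (-1.299) by 1.29 ± 1.15 (SD, n = 10), also a description, and that of Hoxc8 (-1.73) by 1.72 ± 1.05 (SD, n = 10; exact adjusted p = 0.0039). Hoxd9 exceeded Hoxb9 (-1.13) by 1.21 ± 0.38 (SD, n = 10; exact adjusted p = 0.0039), and Hoxa9 (-0.19) by 0.27 ± 0.45 (SD, n = 10; exact adjusted p = 0.0957). All 5 HoxD genes tested reached the filter at both levels. Among the other Hox genes that did, 1 of 2 in groups 10 to 13 was higher in sacral DRG. In groups 1 to 9, 5 of 14 identifiers were lower. Over all 14529 genes tested, 392 were higher and 586 lower. Hoxa11, Hoxc11 and Hoxc12 were also called higher but reached the filter only through the sacral groups, and stand outside these counts. In groups 12 and 13, reads in lumbar and sacral DRG were 108 and 1653 for Hoxc12 and 73 and 575 for Hoxc13. They were 17 and 22 for Hoxa13 and 4 and 5 for Hoxb13.

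**Figure D5:**
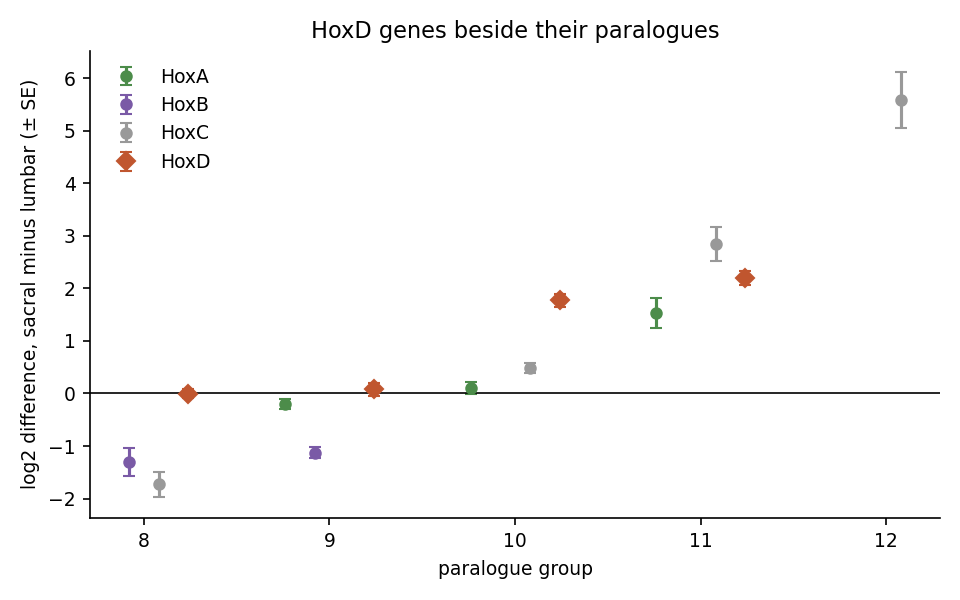
Log2 difference, sacral minus lumbar, with its SE from limma (y axis), of the tested Hox genes of paralogue groups 8 to 12 (x axis), coloured by cluster. Hoxd10 lies above Hoxa10 and Hoxc10, Hoxd11 between Hoxa11 and Hoxc11, and Hoxd8 and Hoxd9 near 0 while the HoxB genes and Hoxc8 lie below.

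No HoxD gene was called for sex in lumbar or sacral DRG, or for an interaction of level and sex, where 0.330%, 1.01% and 0% of all tested genes were called. At an unadjusted p under 0.05 the count was also 0 of 5 in each of the 3 comparisons, as it was by voom at the adjusted threshold. The largest differences, female minus male, were -0.38 ± 0.22 (SE) for Hoxd10 in lumbar DRG (limma, adjusted p = 0.683, 95% interval -0.83 to 0.07) and 0.39 ± 0.22 (SE) for Hoxd9 in sacral DRG (limma, adjusted p = 0.400, 95% interval -0.07 to 0.85). The interaction, how far the level difference of females exceeded that of males, ran from -0.14 for Hoxd8 to 0.26 for Hoxd9 (limma, adjusted p = 0.995 for each of the 5). The Hoxd9 value was 0.08 without F8 and 0.03 with sample weights. In the fit with all donors the 95% intervals of the 5 genes lay within -0.59 to 0.79.

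Of 22 other genes or gene fragments annotated within 500 kb of the cluster, 7 were tested. Gm20440, a transcript on the same strand that starts within Hoxd11 and ends within Hoxd10, was higher in sacral DRG by 1.94 ± 0.15 (SE; limma, adjusted p = 1.46e-07), but 89.73% of its exon bases are also exon of Hoxd11 or Hoxd10, so its reads cannot be told from theirs. The sharing is 8.39% of the Hoxd11 and 3.92% of the Hoxd10 exon bases. The genes at the flanks, Lnp (-0.20, limma adjusted p = 0.141) and Mtx2 (-0.18, limma adjusted p = 0.175), were not called, nor were 1700109F18Rik (0.45, adjusted p = 0.219), Mir10b (1.16, adjusted p = 0.172), Mrpl23-ps1 (-0.26, adjusted p = 0.442) and Gm13654 (-0.03, adjusted p = 0.858), in the same limma fit. Evx2, the homeobox gene beyond Hoxd13, had 5 lumbar and 13 sacral reads in all.

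Of 24 regulators of Hox expression, among them retinoic acid, CDX, Polycomb and Trithorax genes, 18 were tested. The CDX genes Cdx1, Cdx2 and Cdx4 were not, since they had no value in any library. By limma 0 of the 18 were called, with 7 at an unadjusted p under 0.05, where 24.1% of all genes tested stood, and 1 by voom, Aldh1a2. Aldh1a2, which makes retinoic acid, differed by 0.68 ± 0.21 (SE; limma, adjusted p = 0.0574), and Mll1 (Kmt2a), a histone methyltransferase of the Trithorax group, by 0.31 ± 0.10 (SE; limma, adjusted p = 0.0540).

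The tested genes other than HoxD genes whose log2 RPKM was most like that of Hoxd1 over the 20 libraries were Prdm12 (Pearson's r = 0.898), Bcl2 (0.888) and Snph (0.886). For Hoxd8 they were AL772404.1 (0.700), Igtp (0.699) and Ptpdc1 (0.635), and for Hoxd9 Rnf112 (0.739), Zfp653 (0.682) and Gm17354 (0.675). For Hoxd10 they were Gm20440 (0.947), Cartpt (0.901) and C1qtnf7 (0.885), and for Hoxd11 Gm20440 (0.985), Cartpt (0.918) and Hoxc12 (0.906). Gm20440 lies within the cluster, and 89.73% of its exon bases are also exon of Hoxd11 or Hoxd10. With the mean of each level removed, Hoxd1 was again closest to Prdm12 (0.898), then Pik3r1 (0.889), Hoxd8 to Igtp (0.711), Hoxd9 to Rnf112 (0.785), Hoxd10 to Zfp37 (0.828) and Hoxd11 to Gm20440 (0.867). Cartpt was thus near Hoxd10 and Hoxd11 over all libraries and not among the 3 closest within levels. These are descriptions over libraries that share depth and composition.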

How the data were processed

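Each donor embryo gave a lumbar and a sacral library, grouped and paired by the sample labels. Per the study's methods, the authors amplified total RNA, aligned reads to mm9 with Subread, kept unique hits, counted them per Ensembl gene with featureCounts (strand use not stated) and deposited TMM- and voom-scaled log2 RPKM. The submitters' processing notes name limma 3.26.9 and edgeR 3.12.1. With GENCODE M1 exon lengths, 98.27% of values came within 0.05 of a whole read. Blanks were read as 0 reads and set to 0.5 reads, with no pseudocount added.

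limma 3.58.1 (R 4.3.3) was fitted to 14529 genes with 4 group means, donor as a block (duplicateCorrelation, 0.342) and a mean-variance trend, adjusted by Benjamini-Hochberg over all genes tested at 0.05, and was tested on simulated data. The pairing comes from the shared embryo. Deviations from the group means correlated with a median of 0.206 within donors and -0.0202 between donors of the same sex. Within donors the correlation ran from -0.113 to 0.69. Among the sacral libraries of their sex, 4 of 10 lumbar libraries correlated best with that of their own donor. Exact sign-flip tests over 10 donors and correlations with 100000 permutations used Python 3 (scipy). Members and lists were chosen with earlier results of these data known. All HoxD genes are named. Other Hox genes, genes within 500 kb and regulators follow fixed rules, and the 3 most similar genes were taken for each tested HoxD gene. No libraries of a group matched within sampling noise. Limits and intervals on reads (3 reads for 0, exact 95%) cover counting error only. Alternatives changed the value for blanks, the scale, filter, block, weights, covariates, scaling and donors.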

Additional observations from a re-analysis of the deposited data

Results flagged for a closer look

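Of 34 groups of 5 libraries with reads of a HoxD gene, 3 held a library whose gap to the nearest of the other 4 exceeded the 95% critical value of Dixon's test, which chance exceeds in about 1 of 20 groups. Hoxd1 was at 0.84 log2 RPKM in female donor F7 in sacral DRG, while the other 4 females were at 1.93 to 2.30. Hoxd11 was at 0.40 log2 RPKM in male donor M1 in lumbar DRG, and the other males at 1.23 to 1.57. Without M1 the Hoxd11 level difference was still past the threshold. Hoxd12 was at -4.42 log2 RPKM in male donor M5 in lumbar DRG, from 2 reads, and the other 4 males had 0 reads.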

How the results depend on the processing

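Hoxd10 and Hoxd11 stayed past the threshold and higher in sacral DRG under all 25 alternatives, with differences of 1.48 to 1.89 and 1.79 to 2.28, the lowest of each on the log2(RPKM + 1) scale. The number of HoxD genes called was 2 in each except without a filter, where it was 4. It was 2 without each donor in turn, and 2 both without the replicate block and with the block as a fixed term. The donor pairing changed no call of a HoxD gene. The difference of Hoxd11 and Hoxc11 was -0.65 with and without the pairing, given as a description, with no test. Over all genes the level calls did depend on the block (154 without it, 978 with it), on the cartilage and fibroblast covariates (49), the neuronal and glial covariates (266), the sex (107 in males, 30 in females), the sample weights (2998), the filter (509 without) and the donors (400 without F10 to 1594 without F8, with 487 to 600 without M1, M5, F3 or F7). The cause was not tested.

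Small differences turned sign. Hoxd1 was 0.18 with the cartilage and fibroblast covariates and 0.10 with the neuronal and glial ones. Hoxd8 was 0.0185 and 0.066 with these, 0.0644 in males alone, 0.0261 after rescaling to equal medians, 0.0179 with sample weights, 0.0041 by voom, and -0.0802 to 0.0356 without each donor. Hoxd9 was -0.109 with the neuronal and glial covariates, -0.0554 in males alone, -0.0343 with sample weights and -0.0147 to 0.13 without each donor. Without each donor Hoxd4 ran from -0.162 to 0.134, and Hoxd9 minus Hoxd8 from -0.0175 to 0.168. Hoxd11 minus Hoxc11 turned to 0.69 on the log2(RPKM + 1) scale. The number of other genes called near the cluster was 2, against 1, without a filter and with sample weights. Of the genes below the filter, 1 or 2 passed without each donor at a p adjusted over the 4 genes. Hoxd13 did not pass without any 1 of the 7 donors with sacral reads, at differences of 2.37 to 2.82. Too few donors with reads were then left for the test to pass at any size of difference. No HoxD gene was called for sex or interaction in any alternative. Depth limits Hoxd12 and Hoxd13, and the Hoxd3 and Hoxd4 values rest on shared exons.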
